A study of Rattus norvegicus with 60 samples.

Results

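Cxcl12, its receptor Cxcr4 and the Ras effector Rassf5 are 3 of 14217 annotated genes and were measured by 7 of the 31042 probe sets of an Affymetrix whole-genome rat array, namely 3 for Cxcl12, 3 for Cxcr4 and 1 for Rassf5. A probe set was taken where the platform annotation gave one of the 3 symbols alone. The genes were chosen by measured values of these same arrays, so the differences between each dose and vehicle are given as descriptions with their errors and without a test. RNA came from the frontal cortex of adult male Long-Evans rats (postnatal days 62 to 64), taken 6 h after a single dose by oral gavage. The deltamethrin doses were 0.3, 1 and 3 mg/kg and the permethrin doses 1, 10 and 100 mg/kg, with 8 rats in every dose group, and corn oil vehicle was given to 12 rats, which served as controls for every dose. Both compounds are pyrethroid insecticides that act on voltage-sensitive sodium channels, and only deltamethrin carries an α-cyano group. Each rat gave 1 array and no RNA was pooled, so the samples compared are separate animals.

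Cxcl12 is a secreted chemokine, a small protein that guides migrating cells. It signals through Cxcr4, a receptor coupled to inhibitory G proteins, and is also bound by Ackr3, a second receptor that takes the chemokine up and recruits arrestin. In brain the ligand is made by meningeal and vascular cells and by some neurons, and the pair is known for placing interneurons and Cajal-Retzius cells during cortical development. Rassf5 binds active Ras and Rap1, and in lymphocytes one of its products links chemokine signals through Rap1 to integrin adhesion. Ackr3 was not among the chosen genes. It was measured by 1 probe set (1367940_at) and is given for comparison.

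The promoter letters of the ligand and of its receptor are shown as the sequence context in which the measured transcripts start. RefSeq promoters of the rat assembly GRCr8 were matched by symbol for 2 of the 3 genes. Each line gives the 250 bases before the annotated start, 5′ to 3′ on the strand of the gene, with matches to a GC box (GGGCGG or its reverse complement) or a TATA box (TATAAA or its reverse complement) in capitals. The Cxcl12 bases lie at chr4:152060531-152060780 on the plus strand and those of Cxcr4 at chr13:42634289-42634538 on the minus strand.
Cxcl12: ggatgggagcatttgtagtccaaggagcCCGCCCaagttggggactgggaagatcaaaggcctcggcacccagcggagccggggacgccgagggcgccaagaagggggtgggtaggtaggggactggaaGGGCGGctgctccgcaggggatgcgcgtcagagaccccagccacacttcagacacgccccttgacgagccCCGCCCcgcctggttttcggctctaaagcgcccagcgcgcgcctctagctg
Cxcr4: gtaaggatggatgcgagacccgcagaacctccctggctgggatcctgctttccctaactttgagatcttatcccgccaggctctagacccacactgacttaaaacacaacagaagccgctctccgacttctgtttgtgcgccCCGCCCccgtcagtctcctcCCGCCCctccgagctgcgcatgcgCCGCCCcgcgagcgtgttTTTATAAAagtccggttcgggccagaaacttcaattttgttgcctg
Cxcl12 held 3 GC box matches and 0 TATA box matches, whereas Cxcr4 held 3 GC box matches and 2 overlapping TATA box matches on opposite strands. Of 33469 rat promoters of the same length, 30.5% held a GC box match and 12.9% a TATA box match. The share of G and C was 67.6% before Cxcl12 and 57.6% before Cxcr4, against a median of 51.2% over all promoters. These matches are a description of the letters and were not tested as sites.

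The values are log2 RMA values, in which a difference of 1 is a doubling of signal. The median of each array lay between 7.07 and 7.20. The arrays did not form 1 cloud. The first principal component held 58.0% of the variance and the second 10.8%, and clustering on these components set 14 arrays apart from the other 46. All 14 were among the 24 arrays with the lower replicate numbers (1 to 3 at each dose, 1 to 6 in vehicle), called the first replicate set here, and the other 36 arrays form the second set. A straight line on both components separated the sets completely. The sizes of the sets are those of the cohorts the study exposed on separate days, but the labels name no cohort. The smaller array group held 1, 2 and 2 of the 8 rats over the deltamethrin doses (0.3, 1 and 3 mg/kg), 2, 3 and 2 of the 8 rats over the permethrin doses (1, 10 and 100 mg/kg), and 2 of the 12 vehicle rats. Levels are compared within a probe set, never between probe sets.

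The mean of Cxcl12 was higher at the top dose of both compounds by 1 of its 3 probe sets, and by smaller steps or not beyond its error by the others. In bulk tissue, more RNA per cell and more cells of a type cannot be told apart. The probe set 1388583_at averaged 9.37 in vehicle rats (lowest 8.87, median 9.32, highest 10.06, n = 12). Over the deltamethrin doses it averaged 9.36 (8.96, 9.28 and 9.73) at 0.3 mg/kg, 9.57 (9.26, 9.55 and 9.90) at 1 mg/kg and 9.67 (9.31, 9.66 and 10.11) at 3 mg/kg, again with the lowest, median and highest of 8 rats. Over the permethrin doses it averaged 9.40 (9.04, 9.50 and 9.66) at 1 mg/kg, 9.58 (9.36, 9.57 and 9.81) at 10 mg/kg and 9.72 (9.42, 9.59 and 10.14) at 100 mg/kg. All 8 rats at 100 mg/kg permethrin and 7 of 8 at 3 mg/kg deltamethrin lay above the vehicle mean, yet the groups overlapped, with 2 and 1 of those rats above the highest vehicle rat. The difference from vehicle was 0.35 at 100 mg/kg permethrin (SE 0.11, 95% interval 0.13 to 0.58, 1.28-fold) and 0.30 at 3 mg/kg deltamethrin (SE 0.11, 0.07 to 0.53, 1.23-fold). With deltamethrin at 1 mg/kg, and likewise with permethrin at 10 mg/kg, it was 0.21 (SE 0.11), with intervals of -0.02 to 0.43 and -0.02 to 0.44. At the lowest doses it was -0.01 for 0.3 mg/kg deltamethrin and 0.03 for 1 mg/kg permethrin (SE 0.11 each). A line fitted over dose gave a predicted difference at the top dose of 0.31 for deltamethrin (SE 0.11) and 0.31 for permethrin (SE 0.11), each over 36 arrays.

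**Figure D1:**
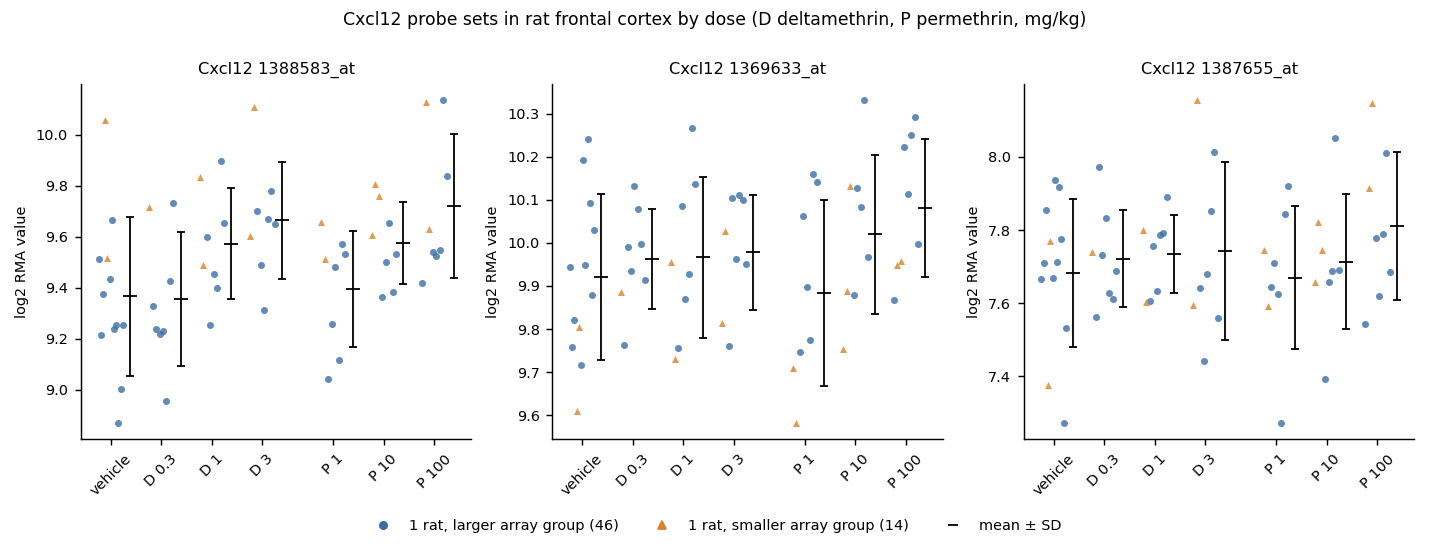
Log2 RMA value of each Cxcl12 probe set (y axis) in every rat by dose group (x axis, D deltamethrin and P permethrin in mg/kg), with circles for the larger and triangles for the smaller array group and bars for the mean ± SD (n = 12 vehicle rats, 8 rats per dose). For 1388583_at the means are highest at the top doses (9.67 for deltamethrin, 9.72 for permethrin), while points of all groups overlap and the triangles sit high for 1388583_at and low for 1369633_at.

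The other Cxcl12 probe sets moved less. By 1369633_at, vehicle rats averaged 9.92 ± 0.19 (SD, n = 12). The means were 9.96, 9.97 and 9.98 over the deltamethrin doses (0.3, 1 and 3 mg/kg), and 9.88, 10.02 and 10.08 over the permethrin doses (1, 10 and 100 mg/kg) (n = 8 each). The difference from vehicle was 0.16 at 100 mg/kg permethrin (SE 0.08, 95% interval 0.00 to 0.32), where 7 of 8 rats lay above the vehicle mean and 2 above the highest vehicle rat. At 3 mg/kg deltamethrin it was 0.06 (SE 0.08, -0.10 to 0.22). By 1387655_at, vehicle rats averaged 7.68 ± 0.20, and the differences were 0.13 at 100 mg/kg permethrin (SE 0.08, -0.04 to 0.30) and 0.06 at 3 mg/kg deltamethrin (SE 0.08, -0.11 to 0.23). Neither of these probe sets differed from vehicle by more than 0.10 at any of the other doses. Thus the 3 probe sets had the same sign at both top doses and differed in size, and the lower bound of the deltamethrin interval was above 0 for 1388583_at only. Whether the probe sets read different transcripts of Cxcl12 cannot be told from the annotation used here. The means of neighbouring groups, in the order of their levels, never differed by more than the SD between rats of a group, in any of the 3 probe sets (largest gap 0.18 for 1388583_at, SD 0.25). The whole range of the means was 1.45 SD for 1388583_at, 1.13 for 1369633_at and 0.75 for 1387655_at. With 7 groups in such a range a gap over 1 SD is hard to reach, so nothing is read from this.

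The dose differences of 1388583_at were measured again within each replicate set, since the sets also differed in its level. In the first set (3 rats per dose, 6 vehicle rats) the difference from vehicle was -0.09, 0.12 and 0.29 over the deltamethrin doses (0.3, 1 and 3 mg/kg) (SE 0.19, 0.15 and 0.19) and -0.11, 0.21 and 0.21 over the permethrin doses (1, 10 and 100 mg/kg) (SE 0.22, 0.13 and 0.24). In the second set (5 rats per dose, 6 vehicle rats) it was 0.10, 0.32 and 0.37 over the deltamethrin doses (SE 0.17, 0.16 and 0.14) and 0.18, 0.27 and 0.50 over the permethrin doses (SE 0.14, 0.12 and 0.16). Both sets thus had higher means at the middle and top doses than in vehicle. The largest difference, 0.50, was in the second set, where 2 of 5 rats at 100 mg/kg permethrin lay above the highest vehicle rat. Within the smaller array group, with 2 vehicle rats, deltamethrin at 0.3, 1 and 3 mg/kg gave differences of -0.07, -0.12 and 0.07. With permethrin at 1, 10 and 100 mg/kg they were -0.20, -0.06 and 0.09 in the same arrays, so that the middle doses lay below vehicle there. Without these 14 arrays it was 0.32 at 3 mg/kg deltamethrin and 0.39 at 100 mg/kg permethrin (SE 0.11 each).

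Rassf5 had its lowest mean in vehicle rats and its highest at the top dose of each compound. The probe set 1370415_at averaged 9.13 in vehicle rats (lowest 8.96, median 9.12, highest 9.32), whose SD of 0.09 was the smallest of the 7 groups. It averaged 9.26 (8.94, 9.26 and 9.49), 9.26 (8.97, 9.29 and 9.64) and 9.33 (9.03, 9.42 and 9.53) over the deltamethrin doses (0.3, 1 and 3 mg/kg). It averaged 9.27 (8.84, 9.30 and 9.55), 9.28 (9.02, 9.29 and 9.49) and 9.42 (9.11, 9.41 and 9.70) over the permethrin doses (1, 10 and 100 mg/kg). The difference from vehicle was 0.30 at 100 mg/kg permethrin (SE 0.08, 95% interval 0.13 to 0.46, 1.23-fold) and 0.21 at 3 mg/kg deltamethrin (SE 0.08, 0.04 to 0.37, 1.15-fold). There, 6 and 5 of 8 rats lay above the highest vehicle rat. At the other 4 doses it was 0.14 to 0.15, with every interval reaching below 0. The study also measured Rassf5 by qRT-PCR in separate rats and reported that exposure did not affect its mRNA, without showing the values.

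At the lower doses the Rassf5 values of the replicate sets lay apart. In the first set the difference from vehicle was 0.38 at 0.3 mg/kg deltamethrin (SE 0.05) and 0.33 at 1 mg/kg permethrin (SE 0.08), with 3 of 3 rats above the highest vehicle rat in both. In the second set the same doses gave -0.02 (SE 0.07) and 0.02 (SE 0.10). At the top doses the sets were close to each other, with 0.20 and 0.20 at 3 mg/kg deltamethrin (SE 0.15 and 0.08) and 0.29 and 0.29 at 100 mg/kg permethrin (SE 0.16 and 0.07). The difference between the sets was not tested. All 5 rats of the second set at 100 mg/kg permethrin lay above every vehicle rat of that set.

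**Figure D2:**
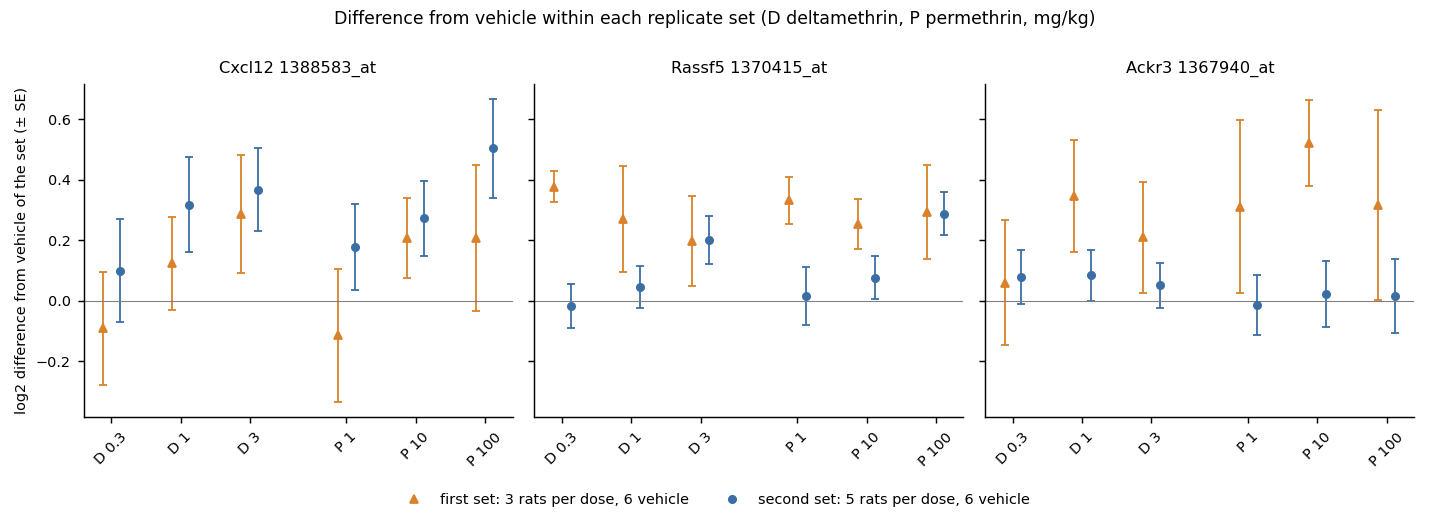
Log2 difference from the vehicle rats of the same replicate set (y axis, ± SE) at each dose (x axis, D deltamethrin and P permethrin in mg/kg) for Cxcl12 1388583_at, Rassf5 and Ackr3, with triangles for the first set (3 rats per dose) and circles for the second (5 rats per dose). The sets lie apart for Rassf5 at 0.3 mg/kg deltamethrin (0.38 in the first set, -0.02 in the second) and for Ackr3 at 10 mg/kg permethrin (0.52 in the first set, 0.02 in the second). All 3 first-set rats at that permethrin dose were in the smaller array group, against 2 of the 6 first-set vehicle rats.

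None of the 3 Cxcr4 probe sets differed from vehicle beyond its error at any dose in the fit of all 60 arrays. By 1389244_x_at, vehicle rats averaged 6.74 (lowest 6.48, median 6.70, highest 6.97), and the dose means lay between 6.76 and 6.83. The largest difference was 0.10 at 100 mg/kg permethrin (SE 0.07, 95% interval -0.05 to 0.24). By 1373661_a_at, vehicle rats averaged 6.51 (6.25, 6.45 and 6.86) and the largest difference was 0.09 at 10 mg/kg permethrin (SE 0.09, -0.09 to 0.27). By 1370097_a_at, vehicle rats averaged 5.57 (5.22, 5.57 and 5.93) and the largest difference was -0.09 at 1 mg/kg deltamethrin (SE 0.10, -0.29 to 0.11). Over the 18 dose differences of Cxcr4 the 95% intervals all held 0, and they reached no further than -0.29 and 0.27. The Cxcr4 probe sets were dim. Their means stood at percentiles 43.7 (1389244_x_at), 39.4 (1373661_a_at) and 20.6 (1370097_a_at) of all probe sets, against 85.6 for Cxcl12 1388583_at. Background signal can narrow a difference at such levels, so no size of change in Cxcr4 RNA is excluded. The replicate sets did not give the same values. By 1389244_x_at the difference from the vehicle rats of the first set was 0.23 at 10 mg/kg permethrin (SE 0.10, 2 of 3 rats above the highest vehicle rat of the set) and 0.20 at 100 mg/kg (SE 0.17), while in the second set it was -0.04 (SE 0.07) and 0.01 (SE 0.11). All 3 first-set rats at 10 mg/kg were in the smaller array group, against 2 of the 6 first-set vehicle rats. Within that array group the difference at 10 mg/kg was 0.05. By 1370097_a_at it was -0.21 at 0.3 mg/kg deltamethrin (SE 0.15) and 0.20 at 1 mg/kg permethrin (SE 0.17) in the first set, and 0.05 (SE 0.15) and -0.09 (SE 0.12) in the second. The annotation gives 1373661_a_at and 1389244_x_at the same source sequence, and the suffix of the second marks a probe set in which some probes also match other sequences, so that these are not separate readings.

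Ackr3, the other receptor of Cxcl12, was tested with the fit over the whole array. It averaged 7.71 in vehicle rats (lowest 7.22, median 7.73, highest 8.06), and 7.81, 7.92 and 7.85 over the deltamethrin doses (0.3, 1 and 3 mg/kg). It averaged 7.85, 7.95 and 7.87 over the permethrin doses (1, 10 and 100 mg/kg). All 6 dose means were higher than the vehicle mean, by 0.10 to 0.23, and none of these differences passed an adjusted p under 0.05. The largest was 0.23 at 10 mg/kg permethrin (SE 0.11, 95% interval 0.02 to 0.45, limma unadjusted p = 0.036, adjusted p = 0.961), where 7 of 8 rats lay above the vehicle mean. At that dose it was 0.52 in the first replicate set (SE 0.14) and 0.02 in the second (SE 0.11), and 0.18 without the 14 arrays (SE 0.12). All 3 first-set rats at that dose were in the smaller array group, against 2 of the 6 first-set vehicle rats. Ackr3 was higher by 0.32 in that array group, and within it the difference from vehicle was 0.13. The part of this imbalance in the 0.52 was not tested. The difference between the sets was not tested.

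**Figure D3:**
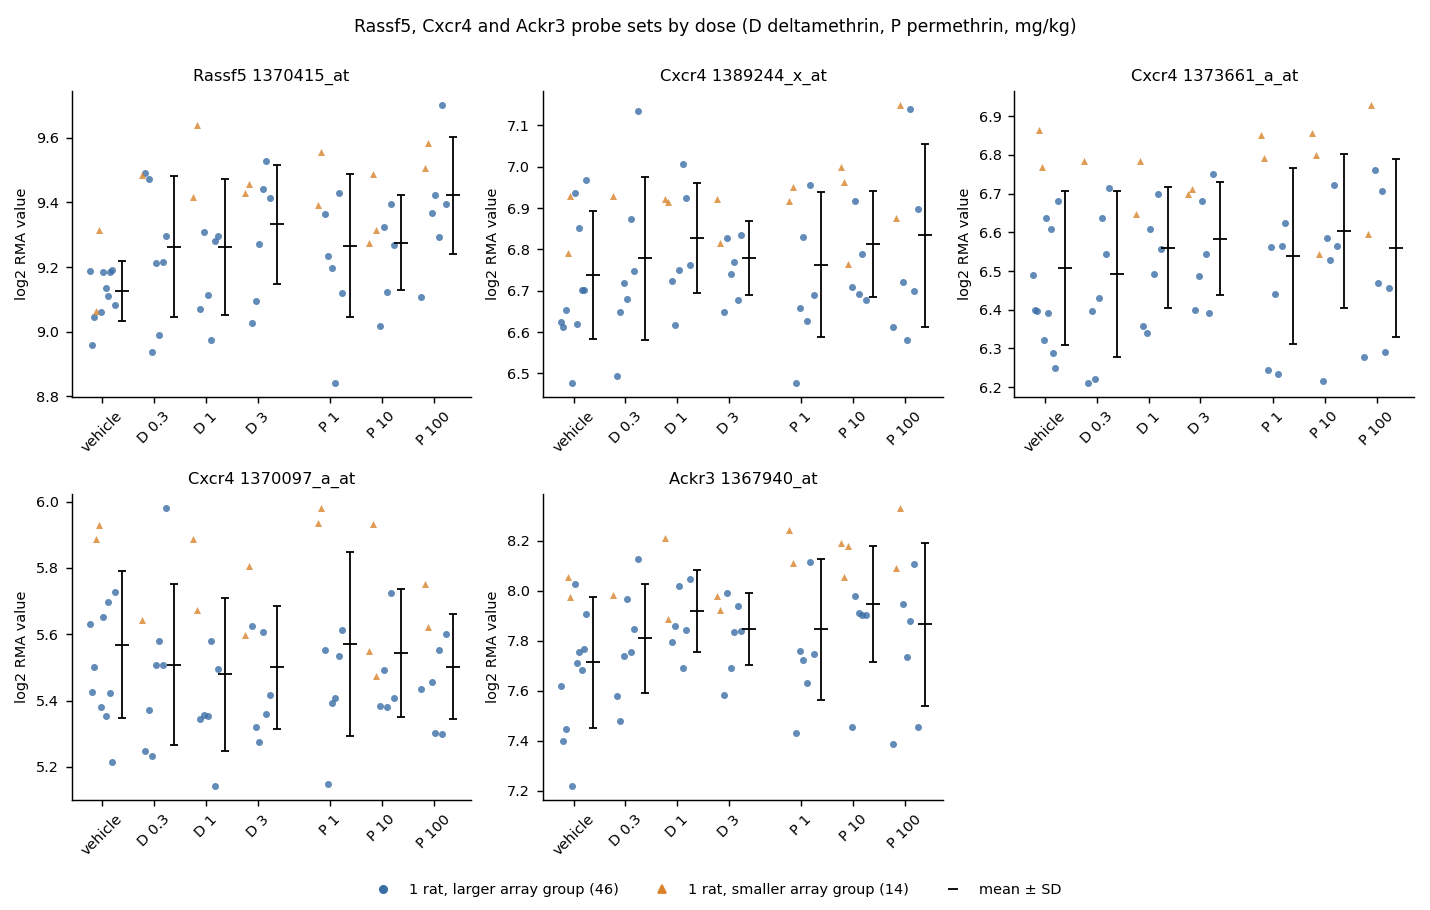
Log2 RMA value (y axis) of the probe sets for Rassf5, Cxcr4 and Ackr3 in every rat by dose group (x axis, D deltamethrin and P permethrin in mg/kg), with circles for the larger and triangles for the smaller array group and bars for the mean ± SD (n = 12 vehicle rats, 8 rats per dose). The vehicle rats are tightly grouped for Rassf5 (SD 0.09), the Cxcr4 groups lie at one level, and the triangles sit high in all of these probe sets.

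Counts over all probe sets give the background for these differences. At an adjusted p under 0.05, limma called 0% of 31042 probe sets in each of the 6 comparisons with vehicle, members included. At an unadjusted p under 0.05 it called 0.751%, 2.24% and 1.36% over the deltamethrin doses (0.3, 1 and 3 mg/kg), and 1.18%, 3.48% and 1.24% over the permethrin doses (1, 10 and 100 mg/kg). Of the 7 chosen probe sets, 2 were past that limit at 3 mg/kg deltamethrin (1388583_at and Rassf5) and 3 at 100 mg/kg permethrin (with 1369633_at in addition). At the other 4 doses 0 of 7 were. As the genes were chosen on these comparisons, nothing is read from their counts.

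**Figure D4:**
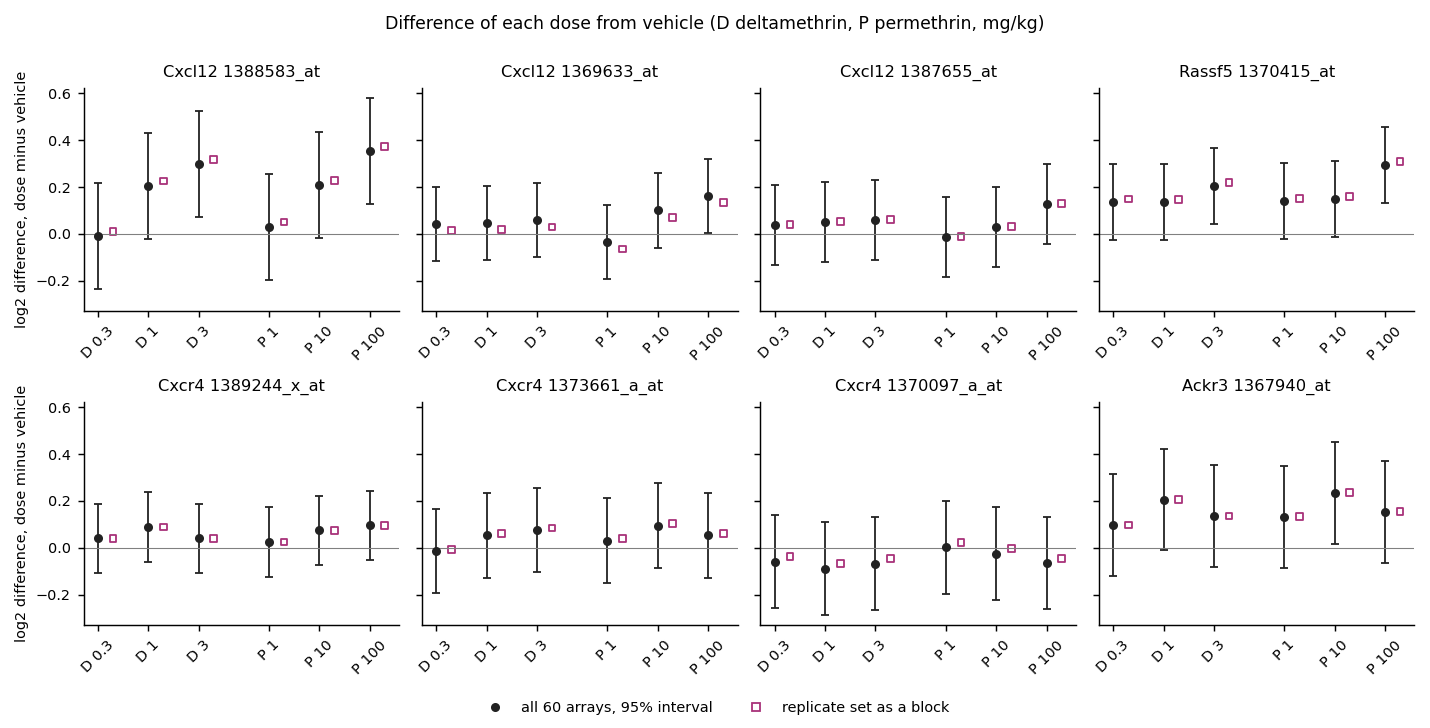
Log2 difference of each dose from vehicle (y axis) for the 7 chosen probe sets and Ackr3 at each dose (x axis, D deltamethrin and P permethrin in mg/kg), as circles with 95% intervals from the fit of all 60 arrays with no block and as open squares with the replicate set as a block. The intervals lie above 0 for Cxcl12 1388583_at and Rassf5 at the top dose of either compound, and hold 0 for every dose of Cxcr4.

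The compounds were set against each other at 1 mg/kg, the dose they share, and at 2 pairs of doses that the study placed alike below its behavioural effect. At 1 mg/kg, deltamethrin and permethrin rats averaged 9.57 and 9.40 for Cxcl12 1388583_at, a difference of 0.18 (SE 0.12, 95% interval -0.07 to 0.42). For Cxcl12 1369633_at the averages were 9.97 and 9.88, a difference of 0.08 (SE 0.09, -0.09 to 0.26). For Rassf5 they were 9.26 and 9.27, a difference of -0.00 (SE 0.09, -0.18 to 0.17). With deltamethrin at 1 mg/kg set against permethrin at 10 mg/kg, Cxcl12 1388583_at averaged 9.57 and 9.58, with an interval of the difference from -0.25 to 0.24. For Rassf5 this interval was -0.19 to 0.16. With deltamethrin at 0.3 mg/kg set against permethrin at 1 mg/kg the intervals were -0.29 to 0.21 for Cxcl12 1388583_at and -0.18 to 0.17 for Rassf5. Every interval of the 21 differences of the 7 probe sets held 0. The intervals still allow differences of the size seen between dose and vehicle, so they do not show that the compounds act alike. Over all probe sets 0% were called at an adjusted p under 0.05 in these 3 comparisons, and 2.73% (1 against 1 mg/kg), 1.02% (1 against 10 mg/kg) and 2.41% (0.3 against 1 mg/kg) had an unadjusted p under 0.05. The top doses (deltamethrin 3 mg/kg, permethrin 100 mg/kg) differ in their behavioural effect, and their means stood at 9.67 and 9.72 for Cxcl12 1388583_at and at 9.33 and 9.42 for Rassf5.

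The probe sets of Cxcl12 lay on opposite sides of the split between the arrays. In the 14 arrays of the smaller group 1388583_at averaged 9.75 ± 0.22, against 9.44 ± 0.25 in the other 46 (SD), and was higher in all 7 dose groups. By contrast, 1369633_at averaged 9.84 ± 0.16 in the 14 arrays, against 10.01 ± 0.16 in the 46, and was lower in all 7 dose groups. The third, 1387655_at, averaged 7.76 in the 14 and 7.71 in the 46 and was higher in 5 of 7 dose groups. All 3 Cxcr4 probe sets, Rassf5 and Ackr3 were higher in the 14 arrays in all 7 dose groups. The difference was 0.31 for 1370097_a_at, 0.28 for 1373661_a_at, 0.17 for 1389244_x_at, 0.20 for Rassf5 and 0.32 for Ackr3. These shifts, of 0.05 to 0.32 in size, lay beside top-dose differences of 0.30 and 0.35 for Cxcl12 1388583_at. Cell type markers moved with the same split. The mean log2 level over measured markers was higher in the 14 arrays by 0.39 for microglia (15 of 16 genes measured), by 0.24 for endothelial and mural cells (21 of 24) and by 0.18 for meninges and fibroblasts (15 of 15), and lower by a difference of -0.27 for excitatory neurons (11 of 12). Of the other marker lists, it was higher by 0.23 for striatal neurons, 0.22 for oligodendrocyte precursors and 0.11 for astrocytes. For blood cells it was higher by 0.09 and for choroid plexus by 0.01. The difference was -0.07 for both oligodendrocytes and inhibitory neurons. The part of cell composition or array handling in the split was not tested.

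Within 1 treatment, rats with a high value by one Cxcl12 probe set did not always have a high value by another. Deviations from the mean of each dose group were correlated within each array group, with values shuffled between rats of a dose group (100000 permutations, two-sided) and p adjusted over the 28 pairs of the 7 probe sets and Ackr3. In the larger array group (46 arrays) 1369633_at and 1387655_at had r = 0.61 (permutation p = 4e-05, adjusted p = 0.000373) and rho = 0.66 (permutation p = 2e-05, adjusted p = 0.000187), and r = 0.60 without the 2 arrays farthest from the median. Their r was 0.66 in the first and 0.74 in the second replicate set. In contrast, 1388583_at and 1369633_at had r = 0.20 (permutation p = 0.214, adjusted p = 0.261) and rho = 0.18 (permutation p = 0.269, adjusted p = 0.314). For 1388583_at and 1387655_at r was 0.39 (permutation p = 0.0100, adjusted p = 0.0234) and rho 0.30 (permutation p = 0.055, adjusted p = 0.124), falling to r = 0.30 without the 2 farthest arrays. Thus, in the larger array group, 2 of the Cxcl12 probe sets varied together, and the one with the largest dose difference shared less of that variation. That group holds arrays of both replicate sets. In the first set 1369633_at was lower than in the second by a difference of -0.23, and 1388583_at was higher by 0.14. The part of these opposite shifts in the low r of this pair was not tested. Of the 28 pairs, 12 passed an adjusted p under 0.05 in the larger group, all positive. In the smaller group (13 arrays, since 1 rat alone in its dose group has no deviation) 0 of 28 passed and 1 had an unadjusted permutation p under 0.05.

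**Figure D5:**
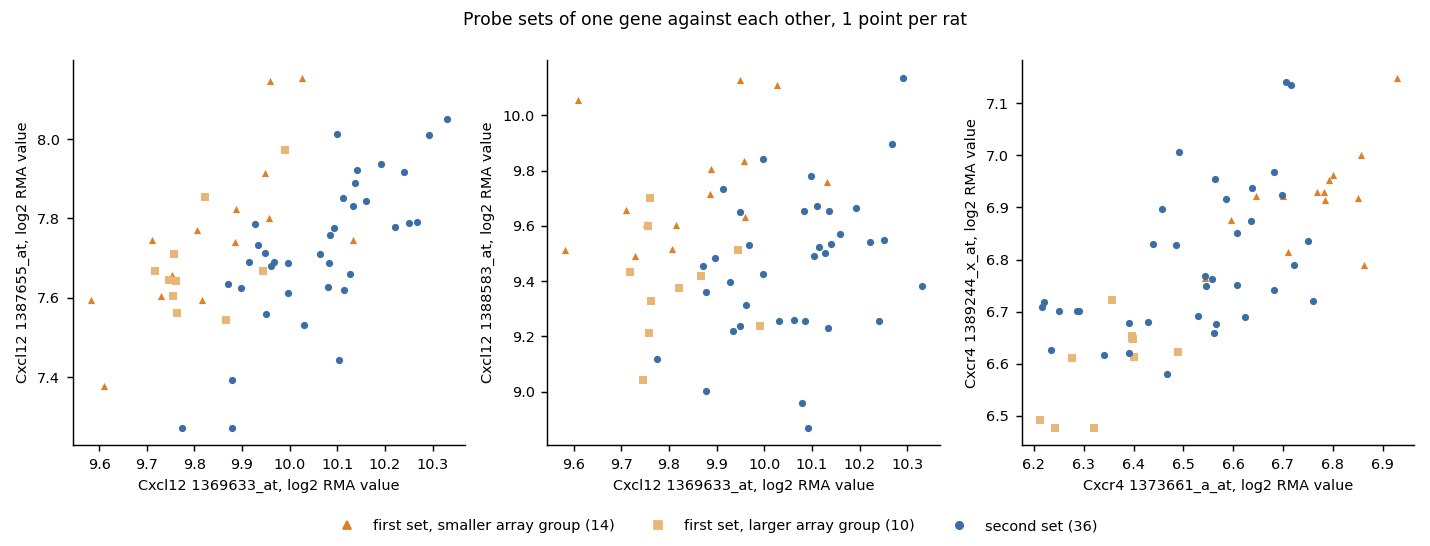
Log2 RMA values of 2 probe sets of one gene against each other, 1 point per rat, with triangles for the smaller array group, squares for the other arrays of the first replicate set and circles for the second set. The Cxcl12 probe sets 1369633_at and 1387655_at rise together within the sets (left), 1369633_at and 1388583_at form no line (middle), and the Cxcr4 probe sets with a shared source sequence rise together (right).

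The Cxcr4 probe sets varied together. In the larger array group r was 0.65 for 1373661_a_at and 1389244_x_at (permutation p = 1e-05, the smallest these permutations can give, adjusted p = 0.00014, rho = 0.65 with the same values of p), and 0.70 without the 2 farthest arrays. For 1370097_a_at r was 0.47 with 1373661_a_at (adjusted permutation p = 0.00827) and 0.53 with 1389244_x_at (adjusted permutation p = 0.0042). Between ligand and receptors r changed with the probe set and the replicate set. Cxcl12 1369633_at and Cxcr4 1373661_a_at had r = 0.56 in the larger array group (adjusted permutation p = 0.00196), but r was -0.10 in the first replicate set and 0.41 in the second (adjusted permutation p = 0.769 and 0.0526). Cxcl12 1369633_at and Ackr3 had r = 0.69 in the larger array group (adjusted permutation p = 0.00014), and 0.06 and 0.49 in the first and second sets (adjusted permutation p = 0.807 and 0.0233). The other ligand probe set, 1388583_at, had r = 0.73 with Cxcr4 1370097_a_at, 0.59 with 1373661_a_at and 0.71 with Ackr3 in the first set (adjusted permutation p = 0.00133, 0.038 and 0.00939). In the second set these were 0.28, 0.25 and 0.49 (adjusted permutation p = 0.244, 0.269 and 0.0172). Of the 28 pairs in the first set 14 passed an adjusted permutation p under 0.05, all positive, and the median r was 0.51. Its 24 arrays include all 14 of the smaller array group, and the array group was not removed from its correlations. In those 14 arrays 1388583_at, Cxcr4 and Ackr3 were higher and 1369633_at lower. The part of this split in the r of the first set was not tested.

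Rassf5 varied with Cxcl12 between rats of the second replicate set, where many pairs did. Of the 28 pairs in that set 11 passed an adjusted permutation p under 0.05, all positive, and the median r was 0.36. There r was 0.51 with 1388583_at (adjusted permutation p = 0.0108, rho = 0.47, 0.50 without the 2 farthest arrays), 0.56 with 1387655_at (adjusted permutation p = 0.00672) and 0.47 with 1369633_at (adjusted permutation p = 0.0251). In the first set the same pairs had r = 0.28, 0.42 and 0.23 (adjusted permutation p = 0.408, 0.274 and 0.474). With the array group in place of the set, 1388583_at and Rassf5 had r = 0.34 in the larger group (adjusted permutation p = 0.0584) and -0.51 in the smaller (adjusted permutation p = 0.74).

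The genes most like each probe set were sought over the deviations of all 60 arrays from the means of dose group and array group, with no test. Most like Cxcl12 1369633_at were Rnf169 (r = 0.81), Cbl (0.80), Hebp1 (0.79), Smim27 (0.78) and Nop10 (0.76). With the replicate set in place of the array group these values fell to between 0.45 and 0.68. Cbl encodes a ubiquitin ligase for activated receptors. For 1388583_at, which was added after its values were seen, they were Aak1 (0.66), Podxl (0.64), Sema3g (0.64), Vwa1 (0.64) and Trib2 (0.62). Podxl encodes a sialomucin of the surface of blood vessels and podocytes and Sema3g a secreted semaphorin. With the replicate set, Podxl, Sema3g, Vwa1 and Trib2 stood at 0.70 to 0.72 and Aak1 at 0.31. Most like Cxcr4 1389244_x_at were S100a16 (0.78), Fn1, which encodes fibronectin (0.76), Klhdc8a (0.75), Marveld1 (0.74) and Adcyap1r1, the receptor of the neuropeptide PACAP (0.74). Most like Rassf5 were Camk1g, a calcium/calmodulin-dependent kinase (0.71), Ly6e (0.68), Eftud2 (0.68), Plxna1, a semaphorin receptor (0.66), and Ppme1 (0.66). The 5 genes alike to Rassf5 kept r of 0.72 to 0.78 with the replicate set. All these points share the arrays and their normalization.

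For genes around the ligand and its receptors limma made 0 calls at an adjusted p under 0.05, as it did over all 31042 probe sets. Of the 29 listed genes of receptor signalling 25 were measured, and 0 were called at an adjusted p under 0.05 by limma. At an unadjusted p under 0.05, 1 was higher (Ackr3 at 10 mg/kg permethrin) over all 6 doses and 0 were lower, 0.667% of 150 tests, against 0.751% to 3.48% of all probe sets by dose. The others closest to the limit were Grk6, a kinase that phosphorylates activated receptors (0.24 at 100 mg/kg permethrin, SE 0.13), Rgs4, which shortens G protein signals (-0.13 at 1 mg/kg permethrin, SE 0.07), and Dpp4, the protease that cleaves Cxcl12 (-0.10 at 3 mg/kg deltamethrin, SE 0.06). The median difference of the list lay between -0.01 and 0.04 over the doses, against -0.01 to 0.01 over all probe sets. Of 30 other chemokines and chemokine receptors 26 were measured and 0 were called. At an unadjusted p under 0.05, 1 of 156 tests was past the limit, 0.641%. Ackr1, a chemokine scavenger of red cells and venules, had a difference of 0.21 at 1 mg/kg deltamethrin (SE 0.10, unadjusted p = 0.045, adjusted p = 1.00) and was the only one under an unadjusted p of 0.05. Cxcl9 stood at -0.13 (3 mg/kg deltamethrin, SE 0.07), Pf4 at 0.24 (100 mg/kg permethrin, SE 0.14) and Cxcr5 at -0.13 (1 mg/kg deltamethrin, SE 0.08).

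The partners of Rassf5 were likewise not called at an adjusted p under 0.05 at any dose, as was true of all 31042 probe sets. Of 27 genes of the RASSF family, the Hippo kinases and the Ras and Rap proteins 23 were measured and 0 were called. At an unadjusted p under 0.05, 1 of 138 tests was past the limit, 0.725%, against 0.751% to 3.48% of all probe sets by dose. Stk4, the Hippo kinase that Rassf5 binds, was the only one with an unadjusted p under 0.05, at -0.20 in 1 mg/kg permethrin rats (SE 0.09, unadjusted p = 0.0339, adjusted p = 1.00). Rassf6 stood at 0.09 (1 mg/kg permethrin, SE 0.05), Rassf4 at -0.11 (0.3 mg/kg deltamethrin, SE 0.08) and Rassf9 at 0.07 (1 mg/kg permethrin, SE 0.05). The text of the study names Notch1, a receptor of cell fate, and Ctnnb1, which encodes β-catenin, beside Cxcl12 as genes of neurite branching. It reports their transcripts as upregulated by pyrethroids in its array data. Here Notch1 and Ctnnb1 were each read by the brightest probe set, and the text of the study names no probe set for them. The dose differences of Notch1 lay between -0.19 and 0.02 (SE 0.15) and those of Ctnnb1 between -0.11 and 0.04 (SE 0.11), and 0 of these 12 had an unadjusted p under 0.05. The study chose these genes on these samples, so that their values are not independent evidence of a direction.

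The arrays carried signal for markers of neurons and astrocytes, which does not grade how purely cortex was dissected. Over the measured genes of each list, vehicle rats averaged 9.32 for excitatory neurons and 9.53 for striatal neurons. Levels of different probe sets are not ranked against each other. The excitatory neuron marker Slc17a7 averaged 12.47, the inhibitory marker Gad1 11.98 and the astrocyte marker Gfap 12.18 over the 60 arrays, while the striatal marker Ppp1r1b also stood at 11.35. Cxcl12 is known to be made by endothelial, mural and meningeal cells and by some interneurons. The mean log2 level of the 21 endothelial and mural markers was 8.54 in vehicle rats (range 8.33 to 8.85) and differed from it by -0.04 to 0.02 over the doses. It was 8.54 (8.42 to 8.69) at 3 mg/kg deltamethrin and 8.53 (8.35 to 8.81) at 100 mg/kg permethrin. The 15 meningeal and fibroblast markers differed from vehicle by -0.02 at 3 mg/kg deltamethrin and -0.01 at 100 mg/kg permethrin, and by -0.14 at 0.3 mg/kg deltamethrin, where Aldh1a2 (-0.25, SE 0.10) and Igf2 (-0.24, SE 0.11) had an unadjusted p under 0.05. The mean of the 11 measured inhibitory neuron markers (of 12) was 10.36 in vehicle rats (10.08 to 10.62). It differed from that by 0.05, 0.06 and 0.07 over the deltamethrin doses (0.3, 1 and 3 mg/kg), and by -0.03, 0.07 and 0.07 over the permethrin doses (1, 10 and 100 mg/kg). The ranges were 10.34 to 10.51 at 3 mg/kg deltamethrin and 10.27 to 10.60 at 100 mg/kg permethrin, inside that of the vehicle rats. The part of these markers in the values of Cxcl12 was not tested.

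Over the 11 marker lists (125 of 140 genes measured) 0 genes were called at an adjusted p under 0.05 by limma at any dose. At an unadjusted p under 0.05, 5 were higher and 9 lower over the 6 comparisons, 1.87% of 750 tests, near the 0.751% to 3.48% of all probe sets. By list the share was above that range for choroid plexus (3 of 42 tests, 7.14%) and for striatal neurons (3 of 66, 4.55%). The endothelial transporter Slco1c1 stood at -0.20 (SE 0.08) and the myelin gene Opalin at -0.32 (SE 0.13), both at 3 mg/kg deltamethrin. The interneuron peptides Npy (0.10 at 1 mg/kg deltamethrin, SE 0.05) and Cck (0.10 at 100 mg/kg permethrin, SE 0.04) stood above vehicle, as did Alas2 of red cell precursors (0.38 at 1 mg/kg permethrin, SE 0.19). Camk2a of excitatory neurons stood at -0.53 at 1 mg/kg permethrin (SE 0.25). Striatal markers had opposite signs at the ends of the deltamethrin range, with Rgs9 at -0.23 (SE 0.08) at 0.3 mg/kg and Pdyn at 0.31 (SE 0.13) and Pde10a at 0.21 (SE 0.10) at 3 mg/kg. The mean of the 11 measured striatal markers differed from vehicle by -0.16 at 0.3 mg/kg and by 0.15 at 3 mg/kg deltamethrin, and by 0.00 at 100 mg/kg permethrin. At 0.3 mg/kg the lowest rat stood at 8.37, below the vehicle range of 9.19 to 9.98, and the SD was 0.45, against 0.23 in vehicle. How far the -0.16 rests on that rat was not tested. The mean of the 7 measured choroid plexus markers differed from vehicle by -0.28 at 1 mg/kg deltamethrin and by -0.26 at 10 mg/kg permethrin. Vehicle rats spread from 7.01 to 8.41 in it (SD 0.41). The choroid plexus genes Kcne2 (-0.16, SE 0.07) and Prlr (-0.14, SE 0.06) stood below vehicle at 1 mg/kg deltamethrin, and Prlr also at 0.3 mg/kg (-0.13, SE 0.06). No microglial, astrocyte or oligodendrocyte precursor marker was under this limit at any dose. The part of tissue composition in the values of Cxcl12 and Rassf5 was not tested.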

How the data were processed

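Frontal cortex RNA of 60 rats was hybridized to 1 Affymetrix whole-genome rat array each. The authors computed the deposited log2 values with RMA (run in RMAExpress), which corrects background, brings arrays to 1 distribution (quantile normalization) and merges the probes into 1 value per set. The table holds 31042 probe sets, and 0 value columns were left unmapped. Arrays give no count depth, so their number limits the precision. Groups and replicate numbers came from the sample labels. Symbols came from the platform annotation: 20826 probe sets had 1 symbol, 436 several and 9780 none.

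The chosen genes and all gene lists were chosen with earlier results of these data known. A list gene with several probe sets was read by the brightest. Named were all probe sets of the chosen genes, up to 4 genes per list with the lowest p at any dose, and the 5 genes most alike to the brightest probe set of each chosen gene. The gene Cx3cr1 stood in 2 lists. A list of branching genes was reduced, after its values were seen, to the genes that the text of the study names.

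All groups entered 1 limma fit (version 3.58.1, R 4.3.3) with moderated variances, and p was adjusted by Benjamini-Hochberg across the array. Dose lines were fitted over the 36 arrays of each compound and vehicle. Array groups came from clustering (2 means) on the first 2 principal components. Standard errors within replicate sets use the variances of the 2 groups compared. Correlations and promoters were computed in Python 3.11.15 (numpy 2.4.6, scipy 1.17.1, pandas 2.3.3), and figures drawn with matplotlib 3.10.9. The fit and the correlation step were tested on simulated data. Alternatives changed the blocks, the normalization, the variance prior, the filter on dim probe sets, the scale and the arrays in the fit. The replicate sets, and the fit without 14 arrays, were added after seeing the data. The scan files and the qRT-PCR of the study were not analysed here.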

Additional observations from a re-analysis of the deposited data

Results flagged for a closer look

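The lowest of the 8 rats given 10 mg/kg permethrin had an Ackr3 value of 7.46, far from the other 7, of which the next lowest stood at 7.90. The gap was 0.608 of the range of the group, above the critical value of 0.526 for 8 samples. This was the only such value in 48 groups of the 7 probe sets and Ackr3, and chance gives about 1 such group in 20.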

How the results depend on the processing

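At the top doses 272 values of Cxcl12 and Rassf5 were recomputed, and 3 changed sign: 1387655_at at 3 mg/kg deltamethrin without the 14 arrays and within the larger array group (-0.01 in both), and 1369633_at at that dose within the second replicate set (-0.02). The settings without the 14 arrays and within the larger array group use the same arrays, so their values are 1 result. The counts of recomputed values include both. With 1 array left out in turn, 1388583_at kept 0.24 to 0.36 at 3 mg/kg deltamethrin and 0.30 to 0.42 at 100 mg/kg permethrin, and Rassf5 0.18 to 0.25 and 0.26 to 0.34. For 1369633_at the ranges were 0.03 to 0.09 and 0.13 to 0.19, and for 1387655_at 0.00 to 0.10 and 0.08 to 0.17. Within the smaller array group, with 2 vehicle rats, 1387655_at stood at 0.30 and 0.46, and 1388583_at at 0.092 for 100 mg/kg permethrin. Over all 6 doses, 22 of 408 recomputed values of 1388583_at and Rassf5 changed sign. With the replicate number as a replicate block, 1388583_at stood at 0.16 and 0.22 (SE 0.11), against 0.30 and 0.35 with no block and now under 2 SE, and Rassf5 at 0.21 and 0.30 (SE 0.08). It called 0 probe sets at an adjusted p under 0.05, and 991 and 1936 at an unadjusted p, against 421 and 384. Numbers 4 to 6 belong to the first replicate set in vehicle and to the second at each dose, so this block crosses the sets. With the replicate set as the block, 1388583_at stood at 0.32 and 0.37 (SE 0.11) and Rassf5 at 0.22 and 0.31 (SE 0.08). The part of that crossing in the lower values was not tested. Same-numbered rats correlated with a median r of 0.369 (-0.819 to 0.899) over 168 pairs, 112 of them over 0.1, against 0.0066 over 1368 other pairs. As not every pair was over 0.1 and the labels name no shared day or litter, the numbers were not taken as pairing, and 11 of 56 rats correlated best with their own number.

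Over all probe sets, limma called 0 at an adjusted p under 0.05 with the settings of the report. At 3 mg/kg deltamethrin it called 2 when blocking on array group, 3 when blocking on replicate set, 1 with median centring, 1 without dim probe sets and 4 without the 14 arrays, and at 100 mg/kg permethrin 1 without the 14 arrays. None was a chosen probe set, and the cause was not tested. The correlation of Cxcl12 1369633_at with Cxcr4 1373661_a_at turned to -0.014 over all 60 arrays and to -0.10 in the first replicate set, and that with 1389244_x_at to -0.052 in the first set. The filter on dim probe sets removed all 3 Cxcr4 probe sets, which have no value under it.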
